A study of Homo sapiens with 2 samples.

Results

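The 10 genes described here are the Notch receptors NOTCH1, NOTCH2, NOTCH3 and NOTCH4, the ligands DLL1, DLL3, DLL4, JAG1 and JAG2, and the target gene HES1. They were picked by name from the 30484 gene names that the array carries, with earlier results of these data known. All 10 were present, with 14 probes on 23 spots. Total RNA came from SAS, a human tongue squamous cell carcinoma line kept in serum-containing DMEM, and from eSAS, the cells that remained after 5 rounds of catching large SAS spheroids on a removable mesh. Both populations thus come from the same line, and the labels name no agent for either. They differ by the selection, whose rounds were run on low-adhesion plates in a spheroid medium with epidermal and basic fibroblast growth factors. This culture history and the selection itself cannot be told apart. The study took the RNA in logarithmic growth, and its methods describe single-cell isolation as a way to set up a line, but the sources used here do not say whether the eSAS RNA came from 1 clone. Each population was hybridised to 1 array of the same slide, so they could not be tested against each other, and p-values are left out. How precise any value here can be is limited by this number of arrays.

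In the Notch pathway, a ligand on one cell binds a receptor on its neighbour, and the receptor is then cut by a metalloprotease and by gamma-secretase. The freed intracellular part enters the nucleus, where it joins the DNA-binding protein RBPJ and a Mastermind coactivator and switches on repressors of the HES and HEY families. In stratified epithelium such as that of the tongue, the pathway is known for its part in the step from basal to differentiating keratinocytes, and NOTCH1 is often mutated in head and neck squamous carcinoma.

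HES1 showed the clearest difference. All 3 of its probes were lower in eSAS cells, by 1.73-fold on average, and JAG1 and DLL1 were lower by 1.47-fold and 1.35-fold. NOTCH2, NOTCH4 and JAG2 had nearly equal levels in both populations, and NOTCH1 was lower by 1.12-fold. NOTCH3 and DLL4 were not well above background on either array. The levels below are the processed signal of the scanner software, in arbitrary brightness units, and each ratio is the log2 of eSAS over SAS after every array was divided by its own 75th percentile, which was 1242 for SAS and 1196 for eSAS. The error after ± is the software's own estimate for the spot, carried over to the log2 ratio, and it leaves out the spread between cultures.

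Of the 14 probes, 11 from 8 genes were well above background on both arrays. Their median log2 ratio was -0.44, beside -0.0039 for the 26659 probes of the whole array that met the same criterion, and 8 of the 11 were lower in eSAS cells, beside 50.8% of those probes. Without scaling between the arrays, every ratio on the array fell by the same 0.054 on the log2 scale, and 11 of 11 were then lower, beside 61.9% of all probes. A difference of at least 1.5-fold was seen at 4 of the 11 probes, all lower and 3 of them belonging to HES1. Over the array, of the 28439 probes well above background on at least 1 array, 6.12% were lower and 4.43% higher by that much, 10.6% in all. At 2-fold, 1 of the 11 probes differed, a lower one, beside 1.97% lower and 1.83% higher, 3.79% in all. Over the 26659 probes that passed on both arrays, as the 11 did, 7.98% differed by 1.5-fold and 2.19% by 2-fold. Members are not replicates, and these counts describe this list only.

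**Figure D1:**
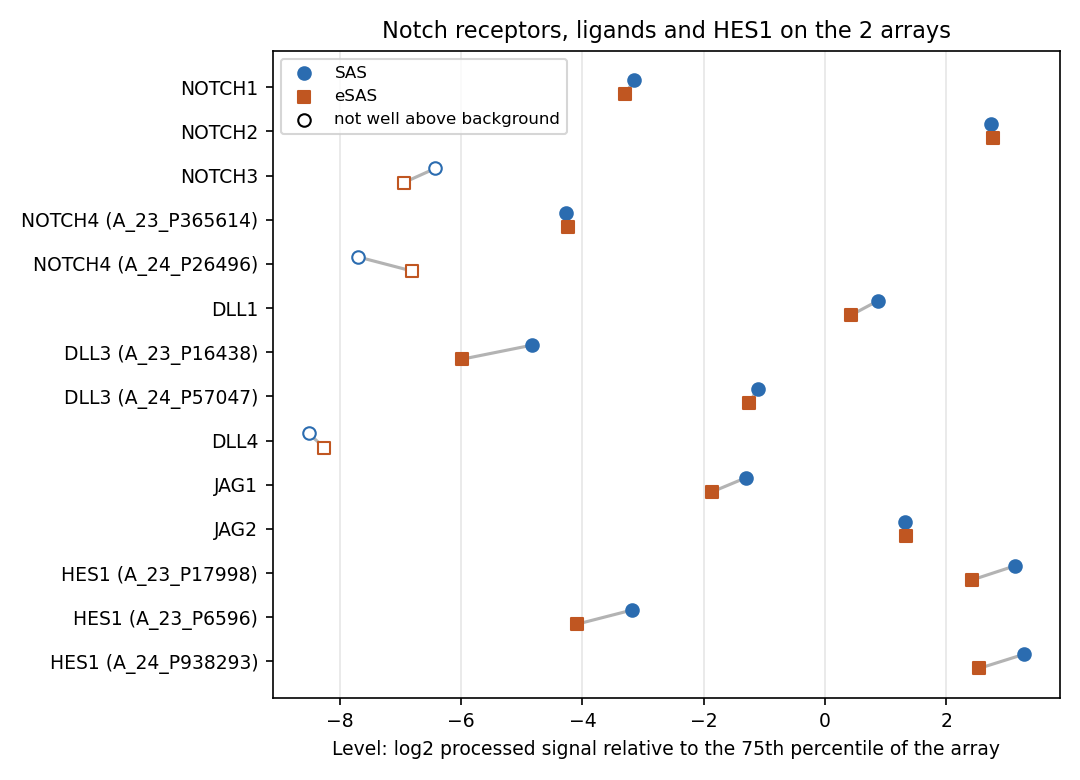
The level of each of the 14 probes is plotted as log2 processed signal relative to the array's 75th percentile, with circles for SAS and squares for eSAS (1 array each) and open symbols where the signal was not well above background. Among the filled symbols, the squares lie left of the circles for HES1, JAG1, DLL1, NOTCH1 and both DLL3 probes. Those of NOTCH2, JAG2 and the measured NOTCH4 probe nearly coincide. Positions may be compared within a row, not between probes.

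No spot of the 10 genes was saturated or marked by the software as uneven or as an outlier, and the local background lay between 23 and 36. Where a probe was printed on several spots, the SD of the log2 ratio between them was 0.0747 over 205 probes. This technical spread depended on brightness: it was 0.183 for the 19 probes with a signal under 100, 0.0713 for the 52 probes between 100 and 1000, and 0.0426 for the 134 probes above.

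Among the ligands, JAG1 and DLL1 had lower levels in eSAS cells at signals far from background. JAG1, the Jagged-type ligand that dominates in many epithelia, was measured by a probe at chr20:10567061-10567120 of hg18, the build of the array. Its signal was 504 in SAS and 330 in eSAS, a log2 ratio of -0.56 ± 0.21. DLL1, a Delta-type ligand, was measured at chr6:170433567-170433626, with 2262 in SAS and 1608 in eSAS. The log2 ratio was -0.44 ± 0.20. Both spots lie in rows 450 to 510, at rows 459 and 451, a band that holds most of the SAS spots marked as uneven. The 8 nearest measured spots had median log2 ratios of -0.038 around JAG1 and -0.018 around DLL1, and the 2793 single-spot probes of the band had a median of 0.0073. Such medians do not show the state of a single spot, and the part of position in both values was not tested. Each of these genes rests on 1 spot per array, and the spread between cultures was not measured.

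JAG2, the other Jagged ligand, had signals of 3085 in SAS and 3004 in eSAS at chr14:104679719-104679778. Its log2 ratio of 0.016 ± 0.20 was smaller than the spread of replicate spots. Thus the Jagged genes did not move alike: 1 was lower in eSAS cells and the other had nearly the same level.

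DLL3, a divergent Delta-like protein that resides mostly inside the cell and inhibits Notch in the cell that makes it, had a pair of probes that disagreed. At chr19:44690317-44690376 the signal was 574 in SAS and 499 in eSAS, a log2 ratio of -0.15 ± 0.20. At chr19:44690472-44690531 it was 43.7 in SAS and 18.8 in eSAS, a log2 ratio of -1.16 ± 0.34. Both were lower in eSAS cells, but the larger difference came from the dim probe, whose eSAS signal was close to 15.2, the lowest signal that passed background there. DLL4, the ligand best known from sprouting vessels, had signals of 3.40 in SAS and 3.93 in eSAS at chr15:39016947-39017006, and neither passed background, so no ratio is given.

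NOTCH1, the receptor with the largest part in epidermal differentiation, is the member measured most often, since its probe at chr9:138509585-138509644 was printed on 10 spots. On the SAS array the signals ran from 128 to 174 with a median of 140. On the eSAS array they ran from 113 to 128 with a median of 122. The log2 ratio was -0.16 ± 0.12 (SD, 10 spots), and it was below 0 at 10 of 10 spots, from -0.46 to -0.034. After scaling, the spots overlapped, and 8 of the 10 SAS spots lay above the highest eSAS spot. These spots are technical repeats within 1 hybridisation, not separate cultures. The widest gap came from the spot in row 200, the brightest of the 10 in SAS. Leaving it out, a choice made with the values in view, gave a mean log2 ratio of -0.13.

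**Figure D2:**
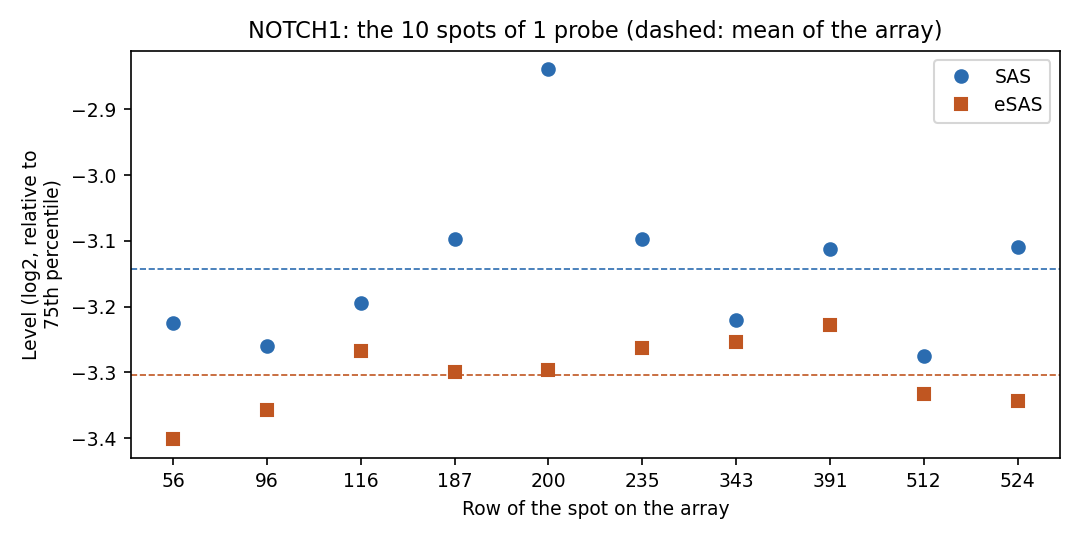
The level of NOTCH1 at its 10 spots is plotted against the row of the array, as log2 processed signal relative to the 75th percentile; circles are SAS, squares are eSAS, and dashed lines are the means over the spots. The SAS circle is above the eSAS square in each of the 10 rows, and the gap is widest in row 200.

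NOTCH2, which shares most of its structure with NOTCH1, had signals of 8247 in SAS and 8115 in eSAS at chr1:120256381-120256440. The log2 ratio was 0.031 ± 0.20. NOTCH4, a receptor found mainly in endothelium, had 1 of its probes well above background. At chr6:32270602-32270661 its signal was 64.6 in SAS and 63.6 in eSAS, with a log2 ratio of 0.031 ± 0.24, and for both genes the difference was below the replicate-spot spread. The other NOTCH4 probe, at chr6:32271556-32271615, had 5.96 in SAS and 10.65 in eSAS, neither well above background. NOTCH3, which is best known from vascular smooth muscle but is also made by keratinocytes, had 14.4 in SAS and 9.72 in eSAS at chr19:15132756-15132815, and its signal too was not well above background. These arrays therefore do not say whether NOTCH3 or DLL4 differed.

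HES1 encodes a basic helix-loop-helix repressor that is a direct target of the RBPJ complex and that also represses its own promoter. Its proximal promoter is shown because HES1 is the target gene among the members and RBPJ is the DNA-binding protein of the pathway. The 250 bases before the RefSeq start, chr3:194135898-194136147 of GRCh38.p14 on the + strand, are printed with the core of the RBPJ motif, TGGGAA, in capitals.

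HES1 promoter: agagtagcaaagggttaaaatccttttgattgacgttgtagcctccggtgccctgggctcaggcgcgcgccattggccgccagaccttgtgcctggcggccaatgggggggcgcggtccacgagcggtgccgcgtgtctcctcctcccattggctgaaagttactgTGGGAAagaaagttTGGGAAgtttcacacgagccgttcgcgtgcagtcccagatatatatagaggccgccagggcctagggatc

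TGGGAA stood at 2 places on the + strand, from -84 to -79 and from -70 to -65 relative to the start, with 8 bases between them, and the first of them was also a match to the longer GTGGGAA. Searched on both strands, TGGGAA was present in 20.8% of the 35116 promoter windows of the same length in the RefSeq table, and 2.90% held it at least 2 times. GTGGGAA, which contains TGGGAA, was present in 5.43%. The letters CACNAG, the N-box to which HES proteins bind, stood in the HES1 window at 3 places that did not overlap TGGGAA, and in 32.0% of all windows at least once. Of the 10 genes, 8 had a window in the table, DLL1 and DLL3 being the others, and HES1 was the only one of the 8 with TGGGAA in it. A match of letters is no evidence of binding in these cells, and binding was not measured here.

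HES1 and DLL3 were the members with several measured probes, and those of HES1 lay closer together. At chr3:195336738-195336797 the signal was 12039 in SAS and 6934 in eSAS, a log2 ratio of -0.74 ± 0.20. At chr3:195338870-195338929 it was 10821 in SAS and 6368 in eSAS, a log2 ratio of -0.71 ± 0.20. The third probe covers chr3:195336970-195337157, which is 188 bases of the genome where the other HES1 probes cover 60, and its signals were dimmer, with 136 in SAS and 69.9 in eSAS. Its log2 ratio was -0.91 ± 0.22. Thus the SAS array was the brighter one at every HES1 spot, and the mean log2 ratio was -0.79 ± 0.11 (SD, 3 probes).

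Over the array, 2.68% of the probes with a signal of 1000 and over were lower in eSAS cells by at least 1.5-fold, as were 5.2% of those from 100 to 1000 and 8.33% of those under 100. Among the 1362 genes with at least 3 probes well above background on both arrays, 16, or 1.17%, had every probe lower by at least 1.5-fold, HES1 being 1 of them. Its dim probe was not lower by 1.5-fold without background correction, at -0.58, nor with normexp, at -0.54, -0.53 or 1.71 by its setting, so HES1 is not 1 of these genes there. Even so, the middle 95% of all probes ran from -0.78 to 0.66, so that 2 of the 3 HES1 probes lay inside this range and the third outside. The spots lie in rows 274, 280 and 392, away from rows 450 to 510, and the 8 nearest spots had median log2 ratios of 0.025, 0.00086 and 0.045. With 1 array each, a difference between the populations, between the cultures and between the hybridisations cannot be told apart.

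**Figure D3:**
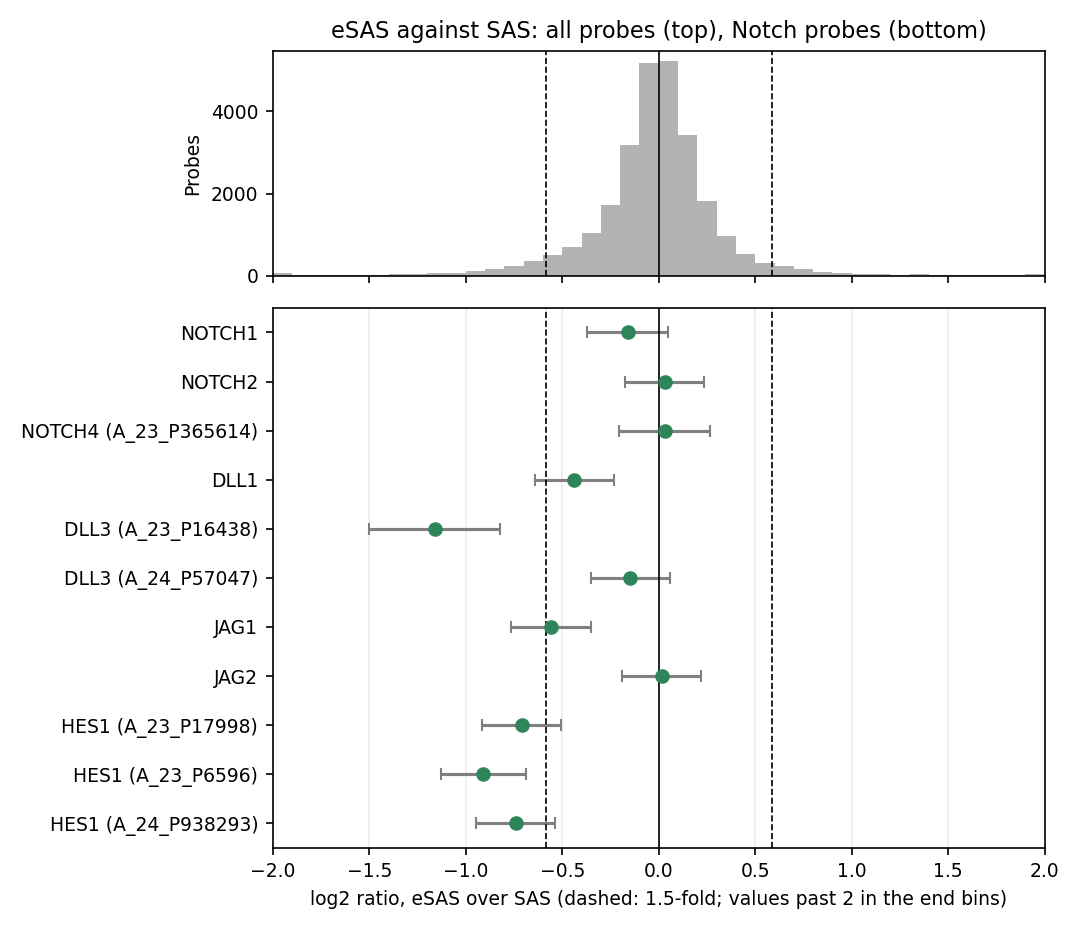
The upper panel counts all 26659 probes well above background on both arrays by their log2 ratio of eSAS over SAS, and the lower panel gives the 11 Notch probes with the software's error as bars; dashed lines mark 1.5-fold. The 3 HES1 probes and the dim DLL3 probe lie left of the left dashed line, and JAG1, at -0.56, lies just inside it.

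The ratios of HES1, JAG1 and DLL1 kept their sign under the scalings tried, which were no scaling, centring on the median and quantile normalization. In these settings HES1 lay between -0.96 and -0.68 over its probes, JAG1 between -0.61 and -0.52, and DLL1 between -0.49 and -0.40. JAG1 passed 1.5-fold without scaling. NOTCH2, NOTCH4 and JAG2 were so close to 0 that the shift of 0.054 common to all probes turned their sign. Subtracting the local background by normexp, a model-based correction fitted over all spots, gave the dim HES1 probe a log2 ratio of 1.71 and JAG1 0.58, while the bright HES1 probes stayed lower in eSAS cells. In that setting the median of all probes was 0.53. Once spots with an uneven local background were left out of it, the dim HES1 probe was at -0.54 and JAG1 at -0.49 with mean pixels, and at -0.53 and -0.48 with median pixels.

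**Figure D4:**
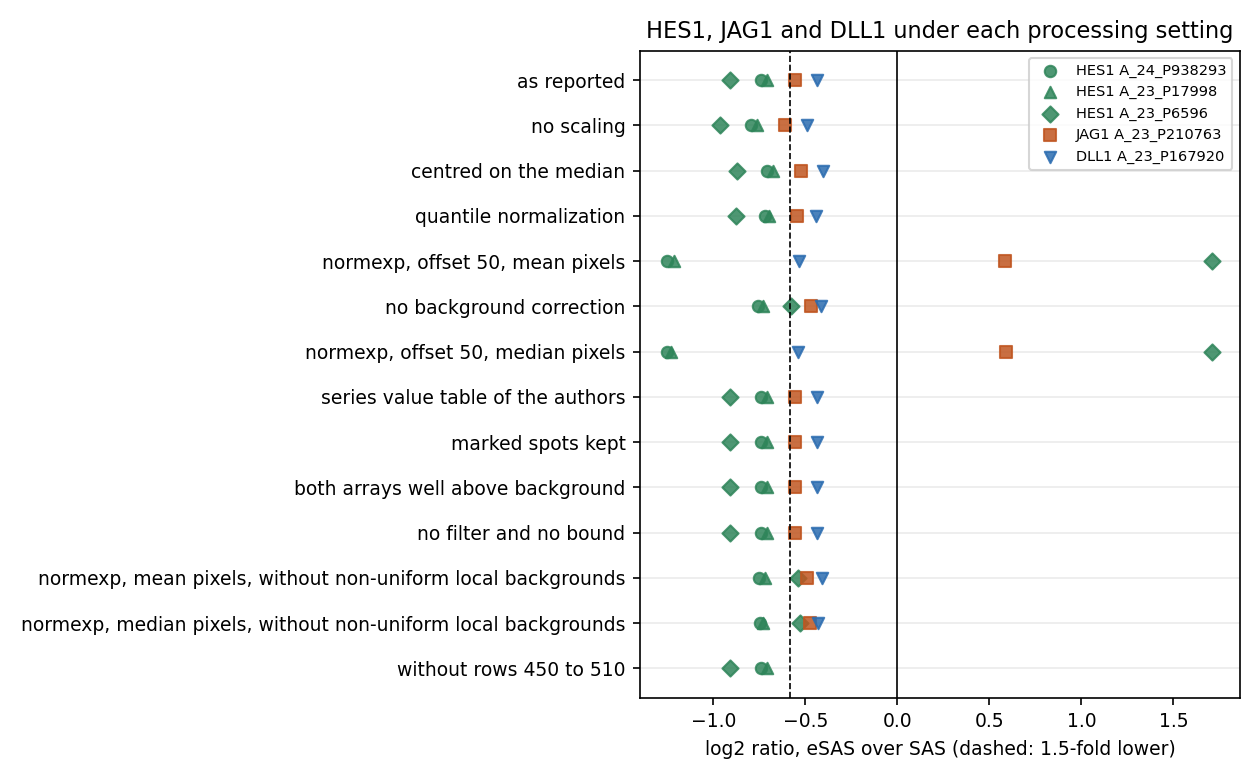
The log2 ratio of eSAS over SAS is plotted for the 3 HES1 probes, JAG1 and DLL1 under the reported processing and 13 others, with a dashed line at 1.5-fold lower; JAG1 and DLL1 have no value without rows 450 to 510. The bright HES1 probes and DLL1 stay left of 0 in every setting that measured them. JAG1 and the dim HES1 probe lie right of 0 in the 2 normexp settings fitted over all spots.

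The other genes of the pathway were taken by role in 7 lists with 59 genes, of which 47 were well above background on both arrays. Their values are means over the probes of a gene. By this measure 4 of the 47 were lower and 1 was higher in eSAS cells by at least 1.5-fold, where 4.98% of 19476 genes were lower and 3.19% higher by that much, 8.17% in all. The median log2 ratio was -0.055, beside -0.0012 for all genes. The lists as a whole thus lay near the background of the array, and the differences belonged to single genes.

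Among genes that act on ligands, NEURL1 was the one past 1.5-fold of 3 measured. It encodes a Neuralized-type ubiquitin ligase that drives the uptake of Delta ligands. Its probes had signals of 5967 and 1730 in SAS and 3452 and 950 in eSAS. The log2 ratios were -0.74 and -0.81, so both probes were lower in eSAS cells by a like amount.

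Of the enzymes that put sugars on the receptors, 1 of 5 measured was past 1.5-fold. MFNG, the Manic fringe glycosyltransferase that changes which ligands a receptor prefers, had signals of 383 and 1057 in SAS and 192 and 456 in eSAS. Its log2 ratios were -0.94 and -1.16, a mean of 2.07-fold lower in eSAS cells. LFNG, Lunatic fringe, had probes that disagreed. One had signals of 3766 in SAS and 2701 in eSAS, a log2 ratio of -0.43. The other, with 5.11 in SAS and 67.7 in eSAS, passed background in eSAS alone and was at least 5.48-fold higher there. A probe that passes in eSAS alone can only be given a higher value there. That second LFNG probe lies in row 491 and the MFNG probe with -1.16 in row 494, both inside rows 450 to 510. The part of this position in their values was not tested.

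The receptor-cutting enzymes were the most even group. All 9 were measured and 0 passed 1.5-fold, beside 8.17% of all genes. Their log2 ratios ran from -0.20 for PSEN2 to 0.16 for NCSTN, both subunits of gamma-secretase. In the nuclear complex, 0 of 11 measured genes passed 1.5-fold. RBPJ itself had a log2 ratio of 0.16 over 3 probes, and the widest differences were those of KAT2B, an acetyltransferase, at -0.44, and HDAC1, a deacetylase, at -0.18. Among the genes of receptor turnover and the inhibitors, 8 of 10 were lower, beside 29 of 47 genes over the 7 lists. Over the array the share lower was 50.8%, counted by single probes and not by genes. In this group 0 passed 1.5-fold, and the median was -0.18. For groups as small as these, counts of 0 lie near the 8.17% of all genes. The widest were DLK2, a Delta-like protein thought to inhibit Notch, at -0.31, and AAK1, an endocytic kinase, at -0.28, whose 3 probes ran from -0.58 to 0.046.

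Of the other HES and HEY genes, 4 were measured on both arrays and 1 of them was past 1.5-fold. HES2, a repressor of the same family, was measured at 263 in SAS and 98.0 in eSAS, a log2 ratio of -1.37, or 2.59-fold lower in eSAS cells. HES5 and HEYL, which are also known targets of the pathway, were well above background on the SAS array alone. HES5, with signals of 26.7 and 15.0, was at least 1.69-fold lower in eSAS cells, and HEYL, with 23.2 and 4.07, at least 1.47-fold lower. A probe that passes on the SAS array alone can only be given a lower value in eSAS cells. The direction for HES5 and HEYL was thus set by the filter, and their signals were dim. Among the genes measured on both arrays, HES4 had a log2 ratio of 0.27, opposite in sign to HES2, and HES6 and HES7 had -0.41 and -0.097. HEY1 and HEY2 were not well above background on either array. Of these genes, HES4, HES5, HEYL and HEY2 had TGGGAA in their RefSeq promoter windows, and HES2, HES6 and HES7 did not.

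The TLE proteins, corepressors that HES factors recruit, went both ways. TLE2 had signals of 44.2 in SAS and 23.98 in eSAS, a log2 ratio of -0.83. TLE4 had 26.7 in SAS and 48.0 in eSAS, a log2 ratio of 0.90. Both signals were dim, and TLE1, TLE3 and TLE5 had log2 ratios of -0.10, -0.0061 and 0.027.

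**Figure D5:**
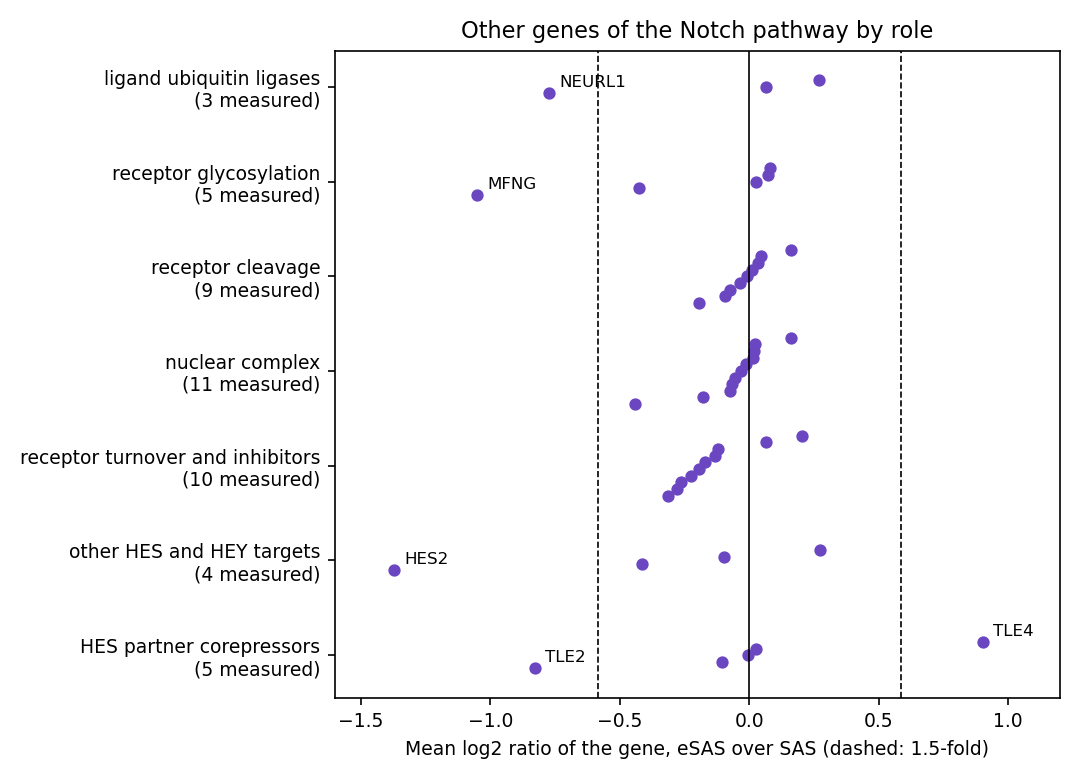
Each point is the mean log2 ratio of eSAS over SAS of 1 of the 47 measured genes, in rows by role, with dashed lines at 1.5-fold and names for the genes past them. NEURL1, MFNG, HES2 and TLE2 lie left of the left line and TLE4 right of the right line; the receptor-cutting enzymes all lie within 0.20 of 0.

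As a check of the labelled cell type, all 10 epithelial markers were well above background on each array, among them EPCAM, KRT8, KRT18, KRT19, DSP and JUP, and their log2 ratios ran from -0.63 for KRT5 to 0.16 for KRT18. KRT5 was thus lower in eSAS cells by 1.55-fold, and TP63, CDH1 and KRT6A had -0.40, -0.48 and -0.46. TP63 and KRT5 mark basal keratinocytes, and their part in the HES1 and JAG1 differences was not tested. In RNA from whole cultures, fewer cells of a kind and less RNA in each cell cannot be told apart.

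Among markers of other cell types, most were not well above background, with THY1, CD14, CD68 and CD79A as clear exceptions. Of 8 endothelial markers, 3 were well above background on the SAS array (VWF, CLDN5 and CDH5) and 2 on the eSAS array, with summed signals of 164 and 149, while PECAM1, KDR, TEK and TIE1 were not. Of 8 fibroblast markers, 2 passed on each array, THY1 on both, COL1A1 on the SAS array and LUM on the eSAS array, with summed signals of 2742 and 2640 that were nearly all THY1. COL1A2, COL3A1 and DCN were not above background. Of 8 leukocyte markers, CD14, CD68 and CD79A passed on both arrays and PTPRC and CD3E on neither, with sums of 3425 and 3423.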

How the data were processed

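One array each of SAS and eSAS RNA, labelled with Cy3 and hybridised on 1 slide, was analysed. The authors deposited the output of Agilent Feature Extraction 10.7.3.1, whose values are linear intensity values: the processed signal had been background-subtracted and detrended within the array, with a small stand-in value for spots below background, and had not been scaled between arrays. The deposited marks for uneven spots, outliers, saturation and signal well above background, and the pixel and local background values, were used as given. The series value table was equal to the processed signal at all 45015 spots.

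From there, each processed signal was divided by its array's 75th percentile over non-control spots, and log2 was taken. Spots marked on either array were left out, and replicate spots of a probe were averaged. Probes needed more than 50 percent of their spots well above background to count as measured. With this met on 1 array only, the fold is a lower bound: on the dim array the probe was given its own signal or the array's lowest well-above-background signal (12.8 for SAS, 15.2 for eSAS), whichever was higher. On the SAS and eSAS arrays, 69.4% and 67.5% of probe spots were well above background. Members were matched by the gene name on the array. Other genes were named through RefSeq accession, current symbol or older symbol with the GRCh38.p14 gene table (23810, 2745 and 1030 of 40814 probes; 13229 kept the array's name). Probe positions are in hg18, whose exon annotation was not used here.

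Members and lists were chosen with earlier results of these data known. The rule for naming was every probe of the 10 members, the genes of the pathway lists with a ratio or bound of at least 1.5-fold or otherwise the 2 widest, and markers above background. RBPJ, HEYL, HES4, HES6, HES7, HEY1, HEY2, TLE1, TLE3, TLE5 and the markers not above background were named outside it. The arithmetic of the ratios and of the 2-fold count was checked on simulated arrays with known changes of 2 on the log2 scale. Smaller changes, the 1.5-fold counts and the lower bounds were not simulated. The check says nothing of the error between cultures. Python 3.11.15 and R 4.3.3 with limma 3.58.1 were used.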

Additional observations from a re-analysis of the deposited data

How the results depend on the processing

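Beside a count by gene, 13 other settings were run, 3 of them chosen after the data were seen. The 2-fold count of 1 Notch probe, the 1.5-fold count of 4, the median log2 ratio of -0.44 and the 5 pathway genes past 1.5-fold stayed within 1.5 times, or within the replicate-spot SD for the median, under no scaling, median centring, quantile normalization, the authors' series table, marked spots kept, both arrays above background and without rows 450 to 510. Some of these settings could not change the Notch counts or median. The authors' table equals the processed signal, no Notch spot was marked, and the 11 Notch probes already passed on both arrays. Counting genes in place of probes gave 0, 2 and a median of -0.30, beside 8.17% of all genes at 1.5-fold. In this count the DLL3 probes average to -0.65 and the 3 HES1 probes count once. No background correction gave 0, 2 and 3 genes, where 1.01% of all probes passed 2-fold and 4.73% passed 1.5-fold. Without a filter or bound, the median was -0.30 and 9 genes passed, where 14.9% of all probes passed 1.5-fold. Normexp over all spots gave 6 probes at 2-fold, a median of 0.45 and 29 genes with mean pixels. With median pixels it gave 6, 7 at 1.5-fold, 0.46 and 29. Of all probes in these settings, 40.3% and 40.2% passed 2-fold, and 55.2% and 55.0% passed 1.5-fold. Normexp turned the dim HES1 probe to 1.71 with either pixel summary, and the dim DLL3 probe to 2.43 and 2.44. The ratios of NOTCH1 (1.74 with either), JAG1 (0.58 and 0.59) and the brighter DLL3 probe (0.45 and 0.46) also became positive. NOTCH4 rose to 2.35 and 2.34, while NOTCH2 fell to -0.50 and JAG2 to -0.20 with either. The median of all probes was 0.53. Without uneven local backgrounds normexp gave 0, 2, -0.36 and 3 with mean pixels, and 0, 2, -0.31 and 3 with median pixels. Why these values moved was not tested. No paired analysis was possible because each population has 1 array. Signals near background limit NOTCH3, NOTCH4, DLL3 and DLL4.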

Other observations

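NOTCH2NL, a family of partial NOTCH2 copies specific to humans, is listed apart from NOTCH2 on the array with 3 probes. Their signals were 1159, 1714 and 242 on the SAS array and 974, 1789 and 187 on the eSAS array. The log2 ratios of eSAS over SAS were -0.20, 0.12 and -0.32, which straddle the 0.031 of NOTCH2. The copies are nearly identical in sequence, so which of them each probe reports is uncertain.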
